A study of Mus musculus with 23 samples.

Results

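The circadian clock and its output were described here through 10 genes, namely Clock, Arntl (also called Bmal1), Per1, Per2, Per3, Cry1, Cry2, Dbp, Tef and Usp2. Every probe that the platform table assigns to one of these symbols was taken, which gave 10 of the 14776 genes named on the array and 17 of its 24048 probes. Clock, Tef and Usp2 each had 3 probes, Per2 had 2, and the other genes had 1. The levels were read in livers, spleens and hearts of mice given oil palm phenolics (OPP) or water.

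The clock is a feedback loop of transcription that runs in nearly every cell with a period of about a day. The proteins CLOCK and BMAL1 bind together to E-boxes and switch on the Per and Cry genes, whose products return to the nucleus and block their own activators. The same pair switches on Dbp and Tef, whose proteins carry the rhythm on to other genes through D-boxes, while NFIL3 blocks those sites. The receptors REV-ERB (Nr1d1 and Nr1d2) and ROR close a further loop on Arntl. USP2 removes ubiquitin from proteins, several clock proteins among them. In rodent organs the messages of these genes, Dbp above all, swing strongly over the day, so that a single sampling shows 1 point of a cycle.

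The start regions of the members are shown first because the genes are bound into the loop through short motifs in their regulatory DNA. RefSeq windows of 250 bases before to 50 bases after a gene start (build GRCm38.p6) were found for 9 of the 10 members (all but Per2), 14 windows in all. They were searched on both strands for the E-box CACGTG, its variant CACGTT, the D-box TTATGTAA or TTACGTAA, and the ROR element core TAGGTCA. Among all 32851 windows of the same length these occurred in 7.15%, 4.68%, 1.06% and 2.61%. Matches lay in 7 of the 14 windows, and none of them overlapped another. In the stretches that follow the match is in capitals. A variant that reads AACGTG is CACGTT on the opposite strand.
Per1, E-box 166 bases before the start, chr11:69098771-69098800, plus strand: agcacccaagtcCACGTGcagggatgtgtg
Tef, E-box 127 bases before 1 start, chr15:81802534-81802563, plus strand: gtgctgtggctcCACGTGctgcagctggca
Tef, E-box 138 bases before the other start, chr15:81811264-81811293, plus strand: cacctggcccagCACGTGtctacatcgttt
Cry1, E-box 60 bases before the start, chr10:85185097-85185126, minus strand: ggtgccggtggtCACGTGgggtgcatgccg
Cry1, variant 79 bases before the start, chr10:85185116-85185145, minus strand: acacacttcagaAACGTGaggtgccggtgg
Cry2, variant 166 bases before the start, chr2:92434218-92434247, minus strand: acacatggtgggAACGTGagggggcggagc
Per3, D-box 205 bases before the start, chr4:151044851-151044882, minus strand: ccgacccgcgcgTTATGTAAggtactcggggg
Per3, D-box 158 bases before the start, chr4:151044804-151044835, minus strand: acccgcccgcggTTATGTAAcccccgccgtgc
Arntl held the ROR element core 30 bases after 1 of its 2 starts. The Per1 E-box lay before 1 of its starts only, and the window of its other start held no match.

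The 2 members whose probes gave the clearest differences in the results that follow, Dbp and Usp2, held none of these letters in their windows. Neither did Clock, which did not differ beyond its spread in any organ. Bases outside the windows were not searched. The 250 bases before the start of Dbp and of Usp2 are printed in lower case throughout, since nothing in them was matched.
Dbp, chr7:45704997-45705246, plus strand: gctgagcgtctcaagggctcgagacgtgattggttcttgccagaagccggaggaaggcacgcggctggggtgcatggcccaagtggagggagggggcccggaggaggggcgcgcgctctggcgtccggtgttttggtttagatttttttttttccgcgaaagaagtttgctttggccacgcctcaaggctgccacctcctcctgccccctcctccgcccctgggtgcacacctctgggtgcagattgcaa
Usp2, chr9:44084670-44084919, plus strand: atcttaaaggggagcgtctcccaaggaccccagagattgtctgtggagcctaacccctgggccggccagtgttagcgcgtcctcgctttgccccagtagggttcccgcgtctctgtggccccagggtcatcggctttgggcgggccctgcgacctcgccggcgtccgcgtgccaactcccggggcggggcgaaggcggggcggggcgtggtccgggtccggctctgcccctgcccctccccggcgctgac
These stretches were 62.4% G or C in Dbp and 71.6% in Usp2.

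The OPP groups were male BALB/c mice, labelled as 12 weeks old, that drank OPP at 1500 ppm gallic acid equivalent for 6 weeks on a normal diet, and the control groups were mice of the same strain, sex and age that drank distilled water on that diet. OPP is the water-soluble phenolic extract of oil palm fruit. Arrays came from 3 OPP and 4 control livers, 4 OPP and 4 control spleens, and 4 OPP and 4 control hearts. The mice had fasted overnight before they were killed, and the hour of sampling is not given in the sources used here. The treatments were kept in separate cages, so that cage, hour of sampling and OPP cannot be told apart. In whole organs fewer cells of a type and less RNA per cell cannot be told apart either.

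The intensities are log2 values after background removal and quantile normalisation, and a probe counts as detected at a detection p under 0.01. The detected probes per array ranged from 5349 to 7664 in OPP livers and 6388 to 6877 in control livers, from 8412 to 8815 in OPP spleens and 8318 to 8957 in control spleens, and from 9023 to 9475 in OPP hearts and 9022 to 9785 in control hearts. The labelled organs carried their markers: all 5 hepatocyte genes on the array were detected on every liver array, at least 4 of 5 cardiomyocyte genes on every heart array, and all 3 B cell genes on every spleen array. Some arrays stood apart. The 5 neutrophil genes summed to 166 to 2703 intensity units in OPP livers, against 27720 and 9132 in control livers 3 and 4 and 613 and 622 in the other control livers. OPP liver 3 had the highest background, 317.9 units. The 3 T cell genes summed to 97 to 178 units in OPP hearts, against 2861 in control heart 2 and 96 to 107 in the other control hearts. Spleens carried strong exocrine pancreas signal.

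Not every member could be read. Cry1 and Per3 were detected on none of the 23 arrays. Per1 was detected in the hearts only, on all 8. Arntl was detected on all 8 spleen arrays, on 2 OPP and 1 control heart arrays, and on no liver array. Cry2 was detected on every liver and heart array and on no spleen array. For Clock and Per2, 1 probe each was detected on all 23 arrays and the others on none, and Dbp and 1 probe of Tef were detected on all 23. Usp2 was detected on every liver and heart array by its brightest probe and, in the spleens, on control array 1 alone. A probe was tested in an organ where it was detected on at least 3 arrays of OPP or of control mice, which kept 8 liver probes of 6 members, 5 spleen probes of 5 members and 9 heart probes of 7 members.

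The levels were first set against each other across the control organs, each probe against itself, in a limma fit of all 23 arrays normalised together, in which 11 member probes were tested. Adjusted p-values were under 0.05 for 7 of the 11 between liver and heart, for 11 between liver and spleen and for 10 between heart and spleen. The shares over all 11212 tested probes were 77.4%, 81.6% and 77.5%, so the members were near the rest of the array here. The 11 between liver and spleen include Per1 and Usp2 probe scl0003492.1_130-S, which were detected in no control liver and no control spleen, so that these differences lie between background levels. The 7 between liver and heart include Arntl and the same Usp2 probe, each detected in no control liver. The liver signal of that Usp2 probe was thus background, though it exceeded the heart by 0.47. Arrays of different organs can share a mouse, and the fit took them as independent. Which organs shared a slide or a hybridisation is not given in the sources used here, so organ and array batch cannot be told apart.

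Dbp, Tef, Per2, Cry2, Usp2 and Clock were lowest in the spleen. Dbp, the D-box activator, averaged 12.45 ± 0.59 in control livers, 11.94 ± 0.12 in control hearts and 8.99 ± 0.84 in control spleens (SD, n = 4 each). The liver exceeded the spleen by 3.46 (SE 0.32, limma adjusted p = 1.85e-09) and the heart exceeded it by 2.95 (adjusted p = 3.13e-08). Liver and heart differed by 0.51 (SE 0.32, adjusted p = 0.155), which is within their spread. OPP organs kept that order, with 12.30 ± 0.51 in the livers (n = 3), 11.38 ± 0.24 in the hearts and 8.21 ± 0.36 in the spleens (n = 4 each).

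Tef, a relative of Dbp, followed the same order at its brightest probe, with 12.09 ± 0.23 in control livers, 11.30 ± 0.07 in control hearts and 9.16 ± 0.50 in control spleens. All neighbours differed here, liver from heart by 0.79 (adjusted p = 0.000606) and heart from spleen by 2.14 (adjusted p = 8.34e-10). Per2, a repressor of CLOCK and BMAL1, ran likewise from 9.99 ± 0.14 in control livers through 9.03 ± 0.11 in control hearts to 7.31 ± 0.23 in control spleens. Its liver exceeded its heart by 0.96 (adjusted p = 5.14e-07). Cry2, the partner of the PER proteins in repression, averaged 8.30 ± 0.16 in control livers and 8.13 ± 0.21 in control hearts, a difference of 0.17 (SE 0.14, adjusted p = 0.261). With no spleen array above background, Cry2 was at least 4.99-fold higher in control liver and at least 4.43-fold higher in control heart than in control spleen. Such bounds set the bright group against the lowest signal detected on each dim array.

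At its brightest probe Usp2 had its highest level in the heart. That probe averaged 10.24 ± 0.12 in control hearts and 9.16 ± 0.25 in control livers, and the liver was lower by 1.08 (SE 0.23, adjusted p = 0.000214). In control spleens it averaged 5.48 ± 0.70, with 1 array of 4 detected. At the dimmer Usp2 probe scl0003480.1_157-S liver minus heart was −0.25 only (SE 0.13, adjusted p = 0.0938). Per1, another repressor, was detected in control hearts alone, where it was at least 1.35-fold higher than in control spleens. Against control livers no bound could be set, and liver minus heart was −0.31 (SE 0.19, adjusted p = 0.149). The background was 137 to 150.5 units in control livers and 51.8 to 55.7 in control hearts, and its part in the detection of Per1 was not tested. The activators did not share an order, and that of Clock was the order of the brightest Usp2 probe. Clock, the partner of BMAL1, averaged 8.67 ± 0.18 in control hearts, 8.15 ± 0.26 in control livers and 7.69 ± 0.21 in control spleens, and every pair of organs differed (adjusted p = 5.89e-06 to 0.00964). Arntl, which encodes BMAL1, was higher in the spleen than in the heart. It averaged 5.52 ± 0.29 in control hearts, with 1 array of 4 detected, and 6.48 ± 0.30 in control spleens (difference −0.96, SE 0.19, adjusted p = 7.02e-05). Its control liver signal was background and gave no bound, so the liver is not ranked.

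**Figure D1:**
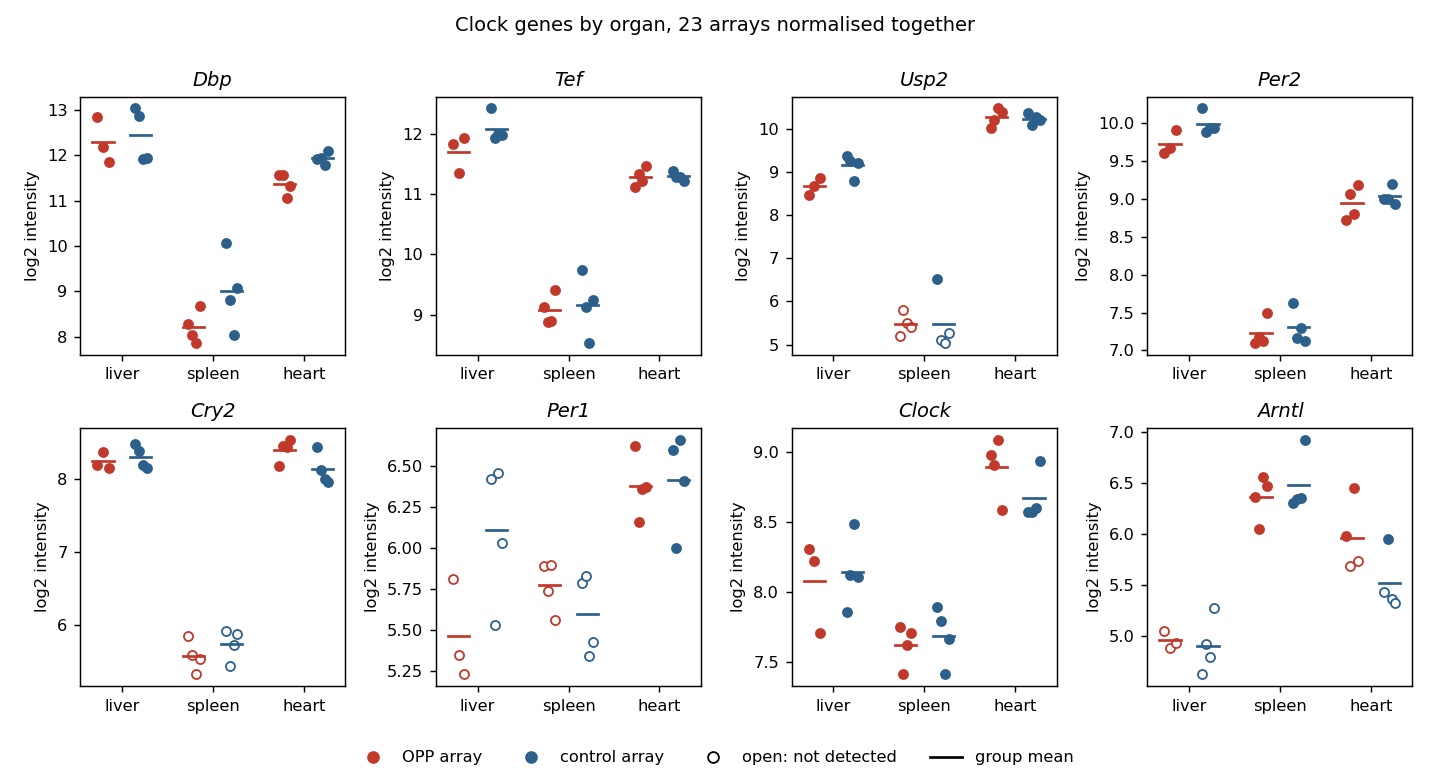
Log2 intensity of the brightest probe of 8 clock genes on each array, by organ, with OPP (red) left of control (blue); all 23 arrays were normalised together, open circles are arrays where the probe was not detected, and lines are group means. By group means Dbp, Tef, Per2, Cry2, Usp2 and Clock sit lowest in the spleens. The Arntl mean is highest there, but all its liver circles are open, at background, so its liver level is not ranked.

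The OPP response was then tested in each organ by limma, and the member probes were counted at an unadjusted p of 0.01. The study also used a p of 0.01, but from the Illumina Custom error model. Limma takes its place here, so these counts are not by the study's own test. No liver probe of the 8 passed (2.92% of all 6434 tested liver probes did), no spleen probe of the 5 (1.69% of 8582), and 1 heart probe of the 9, Dbp (4.61% of 9172, with 2.7% lower as Dbp was). At an unadjusted p of 0.05 there were 2 such probes among the livers (11.2% of all), 0 among the spleens (6.91%) and 2 among the hearts (14.1%). No member passed an adjusted p of 0.05 in any organ, and neither did any other probe (0%). In direction, 7 of the 8 liver probes and all 5 spleen probes were lower with OPP, at medians of −0.21 and −0.08, against medians of −0.03 and 0.00 and shares of 54.6% and 50.7% lower over all tested probes. In the heart 4 of 9 were lower, at a median of 0.03 (all probes 0.00, 48.9% lower).

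**Figure D2:**
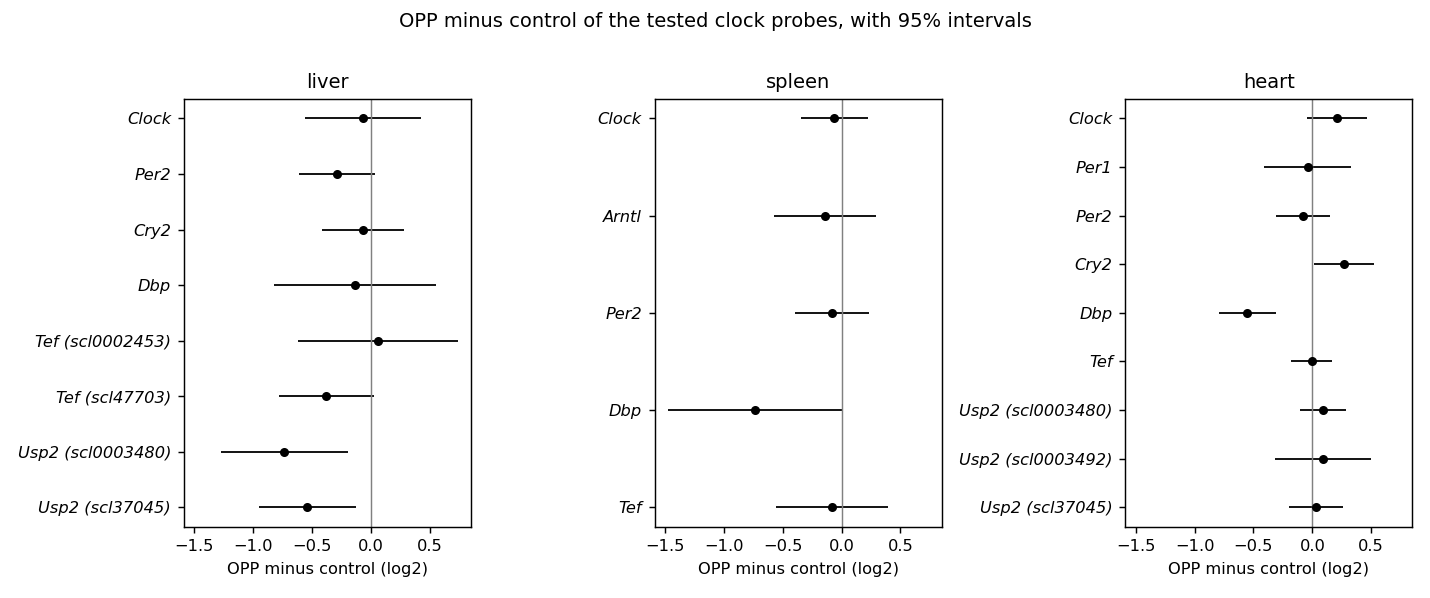
OPP minus control on the log2 scale for every tested member probe in the liver, spleen and heart, with 95% intervals from limma; probe names are given where a gene had more than 1 tested probe. Heart Dbp (−0.55) and the 2 tested liver Usp2 probes (−0.74 and −0.54) have intervals below 0, and heart Cry2 (0.27) has one above 0.

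The activator Clock did not differ beyond its spread in any organ, nor did Arntl in the spleen, where alone it was tested. Clock was 8.75, 8.68, 8.85 and 8.38 in OPP hearts, against 8.36, 8.37, 8.39 and 8.71 in control hearts. Of these, 3 OPP arrays were above 3 control arrays, and the fourth of each group crossed over. The difference was 0.21 (95% interval −0.04 to 0.46, limma unadjusted p = 0.0958). In the livers and spleens Clock differed by −0.07 (−0.56 to 0.43) and −0.06 (−0.35 to 0.22), and the liver value turned to 0.01 with the authors' normalised values. Arntl was 6.45, 6.07, 6.69 and 6.59 in OPP spleens, against 6.38, 6.43, 6.44 and 7.10 in control spleens, a difference of −0.14 (−0.57 to 0.29). The groups overlapped, and control spleen 4 alone was above every OPP spleen. Arntl was 5.70, 5.32, 6.21 and 5.39 in OPP hearts, against 5.02, 5.66, 4.94 and 4.89 in control hearts, and it was not tested there because only 2 OPP arrays and 1 control array detected it.

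Among the repressors Cry2 gave the smallest p, in the heart. Its levels were 7.98, 8.25, 8.23 and 8.33 in OPP hearts, against 8.23, 7.93, 7.82 and 7.75 in control hearts. Control heart 1 lay among the OPP hearts and the other 3 control hearts were below all of them. Cry2 thus differed by 0.27 (95% interval 0.01 to 0.52, limma unadjusted p = 0.0431, adjusted p = 0.34). Without control heart 1 the difference was 0.37 (unadjusted p = 0.00539), and without control heart 4 it was 0.21 (unadjusted p = 0.122). With median scaling it was 0.14 (unadjusted p = 0.315). In the liver Cry2 differed by −0.07 (−0.41 to 0.28).

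Per2 was 9.77, 9.85 and 10.11 in OPP livers, against 10.43, 10.08, 10.14 and 10.14 in control livers. The groups met at OPP liver 3 and control liver 2. The difference was −0.29 (95% interval −0.61 to 0.03, limma unadjusted p = 0.0725). In the spleen and heart Per2 differed by −0.08 in both, with intervals of −0.40 to 0.23 and −0.31 to 0.15. Per1 was 6.39, 5.90, 6.11 and 6.13 in OPP hearts, against 6.37, 5.72, 6.44 and 6.17 in control hearts, so the groups lay over each other (−0.04, −0.41 to 0.33).

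Dbp was lower in OPP hearts than in control hearts. Its levels were 11.34, 11.35, 10.85 and 11.10 in OPP hearts, against 11.68, 11.71, 11.57 and 11.89 in control hearts. Every OPP heart was below every control heart, as held for 4.51% of all tested heart probes in that direction. The OPP level was 68.2% of control, a difference of −0.55 (SE 0.11, 95% interval −0.80 to −0.31, limma unadjusted p = 0.000425, adjusted p = 0.132). The two-sided exact permutation p was 0.0286, the smallest that 4 against 4 arrays can give. Leaving out each heart array in turn gave −0.61 to −0.45, with unadjusted p-values of 0.000234 to 0.0018, and OPP heart 3 was the array with the lowest Dbp. With the spread shared over all 3 organs the difference was −0.56 but its SE was 0.32 and its unadjusted p 0.094, and it was −0.70 with an adjusted p of 0.0196 under median scaling, where the median over all heart probes was −0.12.

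Other measures moved with the groups in the hearts. The summed level of the 5 cardiomyocyte genes was 133104 to 137238 in OPP hearts, against 123798 to 129961 in control hearts, and the background was 44.9 to 49.5 units in OPP hearts, against 51.8 to 55.7 in control hearts. Their part in the Dbp difference was not tested. Tef, whose protein binds the same D-boxes, was 10.91, 11.12, 11 and 11.25 in OPP hearts, against 11.17, 11.07, 11.07 and 11 in control hearts. Tef overlapped throughout and differed by −0.01 (95% interval −0.18 to 0.16).

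**Figure D3:**
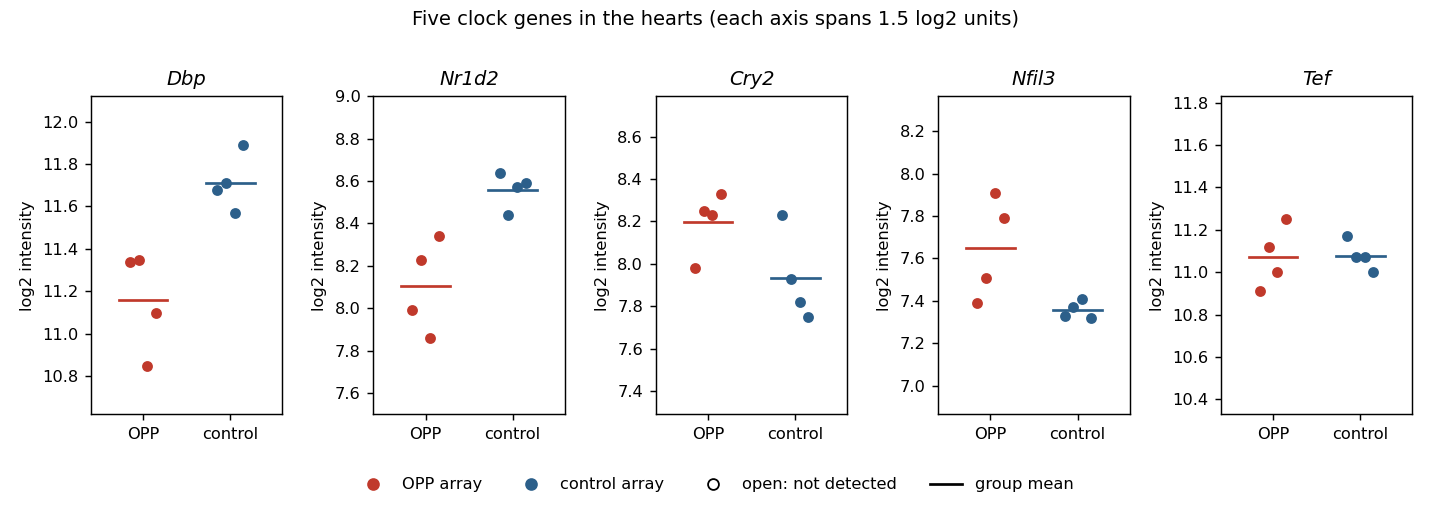
Log2 intensity of 5 clock genes on each heart array, OPP (red) left of control (blue), with lines at the group means and every axis spanning 1.5 log2 units. Dbp and Nr1d2 (probe scl0353187.1_56-S) do not overlap between the groups, whereas the other Nr1d2 probe, not drawn, does, Cry2 and Nfil3 are higher on most OPP arrays, and Tef lies at one level.

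In the spleens Dbp was 8.43, 8.21, 8.05 and 8.82 with OPP, against 10.10, 8.94, 8.20 and 9.19 in controls. Control spleen 3 lay within the OPP range and the other 3 control spleens were above all OPP spleens. The difference was −0.73 (SE 0.34, 95% interval −1.48 to 0.02, limma unadjusted p = 0.0538), and it rested on single arrays: it was −0.40 (unadjusted p = 0.138) without control spleen 1 and −1.03 (unadjusted p = 0.00401) without control spleen 3. The 2 exocrine pancreas genes on the array summed to 30281, 27149, 16726 and 49296 units in OPP spleens, against 74096, 20769, 35389 and 69835 in control spleens. As with Dbp, control spleen 1 was highest and OPP spleen 3 lowest. The 5 neutrophil genes summed to 73424 to 104569 units in OPP spleens, against 29230 to 80464 in control spleens. The part of either tissue in the Dbp levels was not tested.

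In the livers Dbp was 13.10, 12.49 and 12.20 with OPP, against 13.25, 13.11, 12.27 and 12.30 in controls. Both groups held high and low arrays, and the difference of −0.13 (SE 0.30, 95% interval −0.82 to 0.55, limma unadjusted p = 0.667) was inside the spread. It depended on the arrays used: without both control livers 3 and 4, an alternative chosen after seeing the data, it was −0.57 (unadjusted p = 0.0386, adjusted p = 0.461). The REV-ERB gene Nr1d1, which shares the E-box activators with Dbp, was 9.58, 9 and 8.26 on the same OPP livers, against 9.26, 9.49, 8.29 and 8.45 on the same control livers. OPP liver 3 and control livers 3 and 4 were thus low in both genes, irrespective of treatment. Nfil3, the D-box repressor, was highest on those 3 arrays, at 10.36 in OPP liver 3 and 9.51 and 9.83 in control livers 3 and 4, against 8.68 and 9.13 in the other OPP livers and 9.04 and 9.14 in the other control livers. Control livers 3 and 4 also carried the neutrophil signal given above, while OPP liver 3 had none of the 5 neutrophil genes detected.

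Tef was 12.17, 11.69 and 12.27 in OPP livers, against 12.73, 12.28, 12.34 and 12.33 in control livers. Every OPP liver was below every control liver, though OPP liver 3 missed control liver 2 by 0.01 only. Tef and 1 Usp2 probe were the 2 liver probes that did not overlap, both lower with OPP, as held for 5.89% of all tested liver probes. That Usp2 probe, scl0003480.1_157-S, was detected on no OPP liver. It was tested through the control livers alone, so its lack of overlap adds no support. The Tef difference was −0.38 (SE 0.18, 95% interval −0.78 to 0.03, limma unadjusted p = 0.0632), or −0.20 without OPP liver 2. The second tested Tef probe differed by 0.06 (−0.61 to 0.74). In the spleens the brightest Tef probe differed by −0.08 (−0.56 to 0.40).

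Dbp and Tef were set against each other array by array, in a family of 15 pairs of Dbp with another member within an organ. In the spleens they moved together across the 8 arrays (Pearson r = 0.873, exact permutation p = 0.00424, adjusted p = 0.0636, Spearman rho = 0.857, exact permutation p = 0.0107, adjusted p = 0.16). After each treatment mean was removed r was 0.987, and without the 2 arrays farthest from the median of Dbp it was 0.75. Control spleen 1 was highest in Dbp, in Tef (9.82), in Per2 (7.82) and in Usp2 (6.64), and was the 1 spleen array with Usp2 detected. In the livers r was 0.334, and −0.247 without the 2 arrays farthest from the median of Dbp. In the hearts the treatments separated on Dbp, so no pooled value is given. After each treatment mean was removed r was −0.19 there. None of the 15 pairs passed the adjustment.

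**Figure D4:**
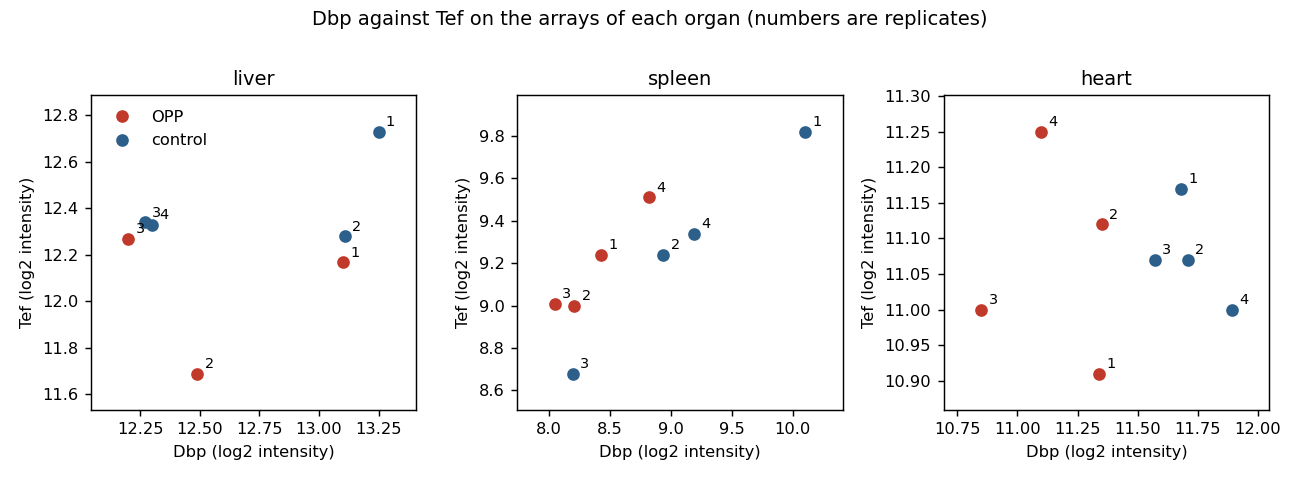
Log2 intensity of Dbp (x axis) against the brightest Tef probe (y axis) on each array of the livers, spleens and hearts, OPP in red and control in blue, with replicate numbers beside the points. In the spleens both genes run from the low arrays to control spleen 1, at 10.10 and 9.82.

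Usp2, the ubiquitin protease, was the member with the smallest p-values in the liver. Its brightest probe, scl37045.17.1_33-S, was 8.52, 8.73 and 8.95 in OPP livers, against 9.50, 9.38, 8.88 and 9.34 in control livers. Control liver 3 fell below OPP liver 3 and the other control livers were above all OPP livers. The OPP level was 68.9% of control, a difference of −0.54 (SE 0.18, 95% interval −0.95 to −0.12, limma unadjusted p = 0.0171, adjusted p = 0.371), and −0.67 (unadjusted p = 0.00233) without control liver 3. Without OPP liver 1 it was −0.43 (unadjusted p = 0.0706), and with median scaling −0.57 (unadjusted p = 0.103). The dimmer probe scl0003480.1_157-S was 5.99, 6.28 and 6.31 in OPP livers, against 7.27, 6.78, 6.68 and 6.99 in control livers. It did not overlap, but it was detected on no OPP liver and on 3 of 4 control livers, through which alone it was tested. Its fitted difference was −0.74 (SE 0.24, unadjusted p = 0.0133, adjusted p = 0.359), while the bound was at least 1.05-fold lower with OPP. Probe scl0003492.1_130-S was not tested in the livers, being detected on 2 OPP livers and on no control liver. Its difference there was 0.05, so not every Usp2 probe was lower with OPP.

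Other markers also differed between the groups of livers on which Usp2 and Tef were read. The 1 erythroid gene on the array was at 1403, 1611 and 1403 units in OPP livers, against 768, 1266, 1390 and 1215 in control livers. The 6 immediate early genes, which respond fast to stress and handling, averaged 5.82, 5.90 and 5.93 on the log2 scale in OPP livers, against 6.03, 6.49, 6.42 and 6.63 in control livers. Egr1, one of them, was detected on every control liver and on no OPP liver. On these scales neither measure overlapped between the groups. Summed like the other marker lists, the immediate early genes did overlap, at 462 to 565 units in OPP livers and 542 to 981 in control livers. Per array only 1 to 2 of the 6 were detected in OPP livers and 2 to 3 in control livers. The part of either measure in the Usp2 and Tef differences was not tested.

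In the hearts the intervals of all Usp2 probes included 0. The same probes, brighter first, differed by 0.03 (95% interval −0.20 to 0.26) and 0.09 (−0.11 to 0.28) there, and another probe by 0.09 (−0.32 to 0.50). Both of the first pair took a minus sign, at −0.11 and −0.025, with median scaling, where the median over all heart probes was −0.12. The response in liver minus the response in heart was tested directly in the fit of all 23 arrays. For scl0003480.1_157-S it was −1.09 (SE 0.20, limma adjusted p = 0.0342), 1 of the 4 probes called among 5584 tested (0.0716%), and for scl37045.17.1_33-S it was −0.52 (SE 0.34, adjusted p = 0.523). The call on the dimmer probe, which was tested in the liver through the control arrays alone, rested on liver values at background. It was lost when any 1 of the 8 heart arrays was left out (adjusted p = 0.0546 to 0.104), and without control liver 1, 2 or 4 the probe was no longer tested. With the authors' normalised values the difference was −0.85 (adjusted p = 0.37).

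**Figure D5:**
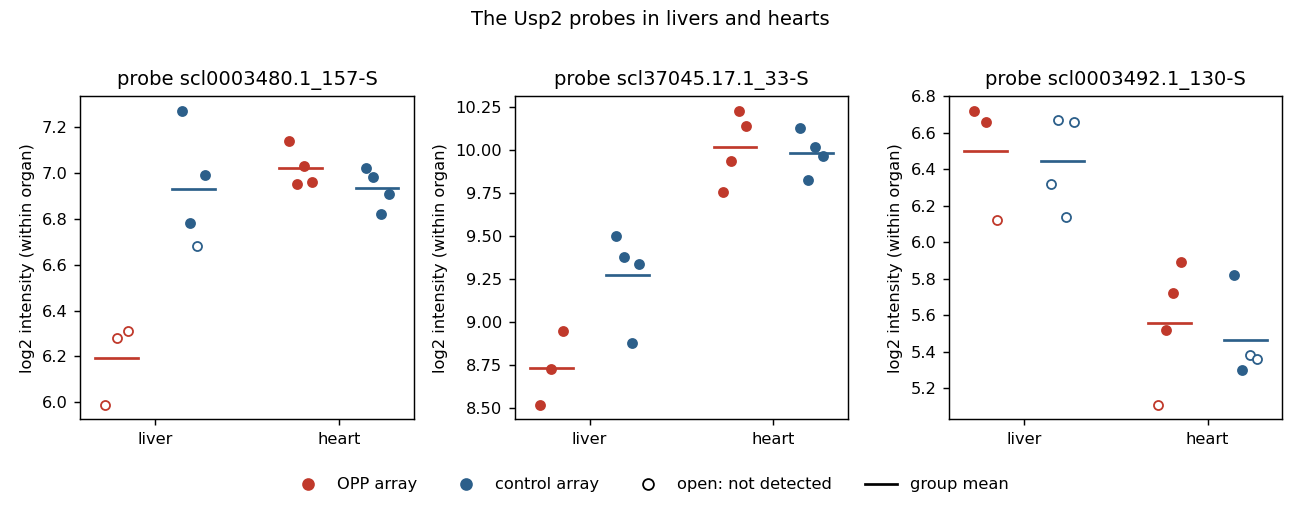
Log2 intensity of the 3 Usp2 probes on each liver and heart array, OPP (red) left of control (blue), normalised within the organ, with lines at the group means and open circles for arrays where the probe was not detected. For the first probe all 3 OPP livers are open and below the control livers, while the hearts lie together near 7.0.

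No other member probe passed that test. Dbp responses differed by 0.63 (SE 0.47) for liver minus spleen, 0.41 (SE 0.47) for liver minus heart and 0.22 (SE 0.46) for heart minus spleen, with limma adjusted p-values of 0.543, 0.745 and 1. The lower Dbp in OPP hearts was therefore not shown to be particular to the heart. The share called over all probes was 0.133% for liver minus spleen and 0% for heart minus spleen. In each of these, 4 member probes were tested, and 0 of them reached an unadjusted p of 0.05 (15.4% and 2.76% of all probes did).

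The rest of the clock was read from a list of 24 further genes, of which 19 had probes, 28 in all. In the liver 10 probes were tested, 4 higher and 6 lower with OPP (median −0.20), in the spleen 16, 7 higher and 9 lower (median −0.03), and in the heart 18, 12 higher and 6 lower (median 0.10). Over all tested probes 54.6%, 50.7% and 48.9% were lower. At an unadjusted p of 0.01 no liver probe passed (2.92% of all tested probes did), 1 spleen probe did (1.69%) and so did 1 heart probe (4.61%). At 0.05 1 liver probe (11.2% of all), 1 spleen probe (6.91%) and 3 heart probes (14.1%) passed, which was near the shares over all probes. None in any organ passed the adjustment. The activator Npas2 and the D-box activator Hlf were detected on no array.

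In the hearts Nr1d2, a REV-ERB repressor of Arntl, gave 7.99, 8.23, 7.86 and 8.34 in OPP arrays, against 8.64, 8.44, 8.57 and 8.59 in control arrays, at probe scl0353187.1_56-S. The groups did not overlap and differed by −0.46 (SE 0.11, limma unadjusted p = 0.00138, adjusted p = 0.138). Its other probe, scl00353187.1_48-S, was 7.35, 7.90, 7.61 and 8.44 in OPP hearts, against 7.70, 7.60, 7.90 and 7.56 in control hearts, a difference of 0.13 (SE 0.19), so that the 2 probes of the gene disagreed. In the spleens the first probe differed by −0.44 (SE 0.22, unadjusted p = 0.0688). Nr1d1, the other REV-ERB gene, differed in the hearts by −0.10 (SE 0.16) at its brighter probe.

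Nfil3 was 7.57, 7.79, 7.36 and 7.30 in OPP spleens, against 7.03, 7.02, 7.27 and 6.69 in control spleens. The groups did not overlap, as held for 2.16% of tested spleen probes in that direction. The difference was 0.51 (SE 0.15, limma unadjusted p = 0.0076, adjusted p = 0.558), though OPP spleen 4 cleared control spleen 3 by little, and the unadjusted p was 0.0207 by the methods' t-test. The 5 neutrophil genes summed to 88224, 104569, 82769 and 73424 units in OPP spleens, against 55425, 55609, 80464 and 29230 in control spleens. That is nearly the order of Nfil3 over the 8 arrays, with OPP spleen 2 highest and control spleen 4 lowest in both, and the part of neutrophils in the Nfil3 levels was not tested. In the hearts Nfil3 was 7.39, 7.51, 7.91 and 7.79 with OPP, against 7.33, 7.37, 7.41 and 7.32 in controls, a difference of 0.29 (unadjusted p = 0.028). OPP heart 3, the array with the lowest Dbp, had the highest Nfil3 and, at 6.21, the highest Arntl of the hearts.

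Further genes reached an unadjusted p of 0.05 in 1 organ each. Nampt, the enzyme that starts NAD salvage and a clock target, differed by 0.34 in the hearts (SE 0.12, limma unadjusted p = 0.0132). Csnk1e, a kinase that phosphorylates PER proteins, differed by −0.46 in the livers (SE 0.19, unadjusted p = 0.0369). Bhlhe40, an E-box repressor, differed by −0.33 in livers, −0.10 in spleens and −0.23 in hearts, with unadjusted p-values of 0.206, 0.501 and 0.117.

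The probes whose pattern was most like that of Dbp were sought among 5088 probes tested in all 3 organs, by the Pearson correlation of organ-centred values over the 23 arrays. The named genes with the highest r were F8a (0.854), Spns1 (0.805) and Snrpn (0.798). The arrays share organs, treatments and normalisation, so these values are a description only. Per1 and Usp2 had no probe tested in all 3 organs and were not matched.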

How the data were processed

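Total RNA from livers, spleens and hearts was hybridised to 23 Illumina MouseRef-8 BeadChip arrays, 1 sample per array, grouped by the labels. The organs came from 1 small set of mice per treatment, so arrays of different organs can share a mouse. The labels do not tie organs to mice, and fits across organs took all arrays as independent. The authors chose the RNA samples of highest integrity and removed outlier arrays before deposit. The authors exported, by BeadStudio 1.5.1.3 as the submitters noted, non-normalised intensities, a detection p-value for each probe, and intensities normalised by the rank invariant method. The last held values below 0. Where they were used, values under 10 were set to 10 here, as the methods do for fold changes. The genome build behind the probes is not given in the sources used here.

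The deposited non-normalised intensities went through limma 3.58.1 under R 4.3.3: nec background removal (detection p, offset 16), quantile normalisation within an organ, log2, lmFit and eBayes with a trended variance, and Benjamini-Hochberg adjustment over all tested probes. A probe entered the test if 3 or more arrays of a group had its detection p below 0.01. Differences between organs came from 1 fit of 6 group means. Exact permutation tests were two-sided. Of 24048 probes, 19398 had 1 gene symbol and 4650 had none. The steps were tested on simulated data. Promoters were searched and figures drawn with Python 3.11.15 and matplotlib 3.10.9.

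The members and the other lists were chosen with earlier results of these data known. All member probes were named. Further clock genes were named at an unadjusted p under 0.05, and Nr1d1, Nr1d2, Hlf, Nfil3, Npas2 and Bhlhe40 wherever measured. The alternatives were the authors' normalised values, median scaling, no background correction, no filter, detection on every array of a group, an unpaired Student's t-test, all organs in 1 fit, the replicate block and each array left out. No 2 arrays held identical values. The number of arrays limits the precision.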

Additional observations from a re-analysis of the deposited data

Results flagged for a closer look

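Among 45 groups of 4 arrays examined, over the tested members and the further clock genes with an unadjusted p under 0.05, 5 held 1 array far from the other 3 by Dixon's test, which chance does for about 1 group in 20. Arntl was 7.10 in control spleen 4, with its nearest neighbour at 6.44. Clock was 8.71 in control heart 4, with its nearest neighbour at 8.39. The brightest Tef probe was 12.73 in control liver 1, with its nearest neighbour at 12.34. Usp2 at probe scl0003492.1_130-S was 5.82 in control heart 1, with its nearest neighbour at 5.38. Nampt was 9.21 in control heart 4, with its nearest neighbour at 9.44.

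The OPP response of Usp2 at probe scl0003480.1_157-S differed between organs in a test of the difference, by −1.09 for liver minus heart (limma adjusted p = 0.0342). That probe was detected on none of the 3 OPP liver arrays and was tested in the liver through the control arrays alone. The adjusted p was above 0.05 with any 1 heart array left out (0.0546 to 0.104), with the authors' normalised values (0.37), median scaling (0.942), no filter (0.102) and the replicate block (0.139). Without control liver 1, 2 or 4 the probe was not tested.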

How the results depend on the processing

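The limits are the number of arrays, probes near background (1 Usp2 probe in the liver, Arntl, Per1) and single arrays. The count of members called at an unadjusted p of 0.01 in the liver was 0 as reported. It was 1 with no filter, with the unpaired Student's t-test and with all organs in 1 fit, where the call was Usp2 probe scl0003480.1_157-S. It was also 1 without both control livers 3 and 4, an alternative chosen after seeing the data, where the call was the brighter Usp2 probe. It was 0 to 1 with each array left out. The spleen count was 0 to 1 and the heart count 1 to 2 with each array left out, and the heart count was 0 with all organs in 1 fit, where the spread is shared with the other organs. The causes of the other moves were not tested. For liver minus spleen, 1 member was called with no filter, where none was called as reported. For liver minus heart, where 1 was called, none was with the authors' values, median scaling, no filter, the replicate block or without both control livers 3 and 4, and 0 to 1 with each array left out. The other counts with an array left out were 0 to 0 for liver minus spleen and for heart minus spleen, 6 to 8 for control liver against heart, 10 to 11 for liver against spleen and 10 to 10 for heart against spleen.

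Signs turned as follows. Clock in the liver was 0.01 with the authors' values and 0.10 without both control livers 3 and 4, and −0.19 to 0.13 with each array left out. In the heart with median scaling Usp2 was −0.025 at scl0003480.1_157-S and −0.11 at scl37045.17.1_33-S, where the median of all heart probes was −0.12. With each array left out the ranges that crossed 0 were −0.138 to 0.002 for Cry2, −0.387 to 0.067 for Dbp and −0.34 to 0.32 for Tef (probe scl0002453.1_157-S) in the liver, −0.218 to 0.031 for Arntl, −0.153 to 0.009 for Clock, −0.172 to 0.026 for Per2 and −0.278 to 0.103 for Tef in the spleen, and −0.193 to 0.047 for Per1, −0.069 to 0.045 for Tef and −0.038 to 0.12 for Usp2 (probe scl37045.17.1_33-S) in the heart.

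Over all heart probes the count at an unadjusted p of 0.01 was 423 as reported, of which 41.4% were higher, and 1061 with median scaling, of which 2.7% were higher. With all organs in 1 fit the liver count was 743 (47.1% higher), against 188 as reported (72.9% higher). With the authors' values 84.7% of liver calls were higher, and with median scaling 94% of spleen calls were higher, against 69% as reported. Median scaling left 25 liver calls and the replicate block 106. Whether the replicate numbers pair the arrays was not tested. Same-numbered arrays correlated at 0.02 to 0.07 in the livers, −0.29 to 0.32 in the spleens and 0.01 to 0.46 in the hearts, with no other pairs set beside them. With the replicate block the Usp2 difference between liver and heart was −1.06 (adjusted p = 0.139), and no count of members within an organ moved. A slide block was not run, because the files give no slide.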
